A study of Homo sapiens with 3 samples.

Results

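Exon skipping was examined in zinc-finger genes outside chromosome 19, taken as every event whose gene symbol is ZNF with a number and at most 1 further letter, on any other chromosome and without ZNF207. Of 11222 gene symbols in both tables, 171 met this rule, with 513 of 39434 listed exons. Their events numbered 603 of 42518 for RS3 and 565 of 40702 for RS2. All libraries came from the established human foreskin fibroblast line BJ, taken 8 days after the viral reprogramming factors OCT4, SOX2, KLF4 and MYC were induced. The cells had received siRNA against SMAD3, a mediator of TGF-beta signalling (genotype SMAD3 Knock-down), siRNA against SFRS11, the splicing factor now called SRSF11 (genotype SFRS11 Knock-down), or non-targeting siRNA (genotype WT). Each group is 1 library. No label ties the library codes RS2 and RS3, or the library both are compared with, to an siRNA, so the codes are kept and the shared one is called the comparator library. Each event is 1 deposited row for a skipped exon, with a difference in inclusion level, the share of transcripts that keep the exon. The difference runs from -1 to 1 and was read as RS2 or RS3 minus comparator. Every direction given here rests on that reading, which no label or header states.

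Zinc-finger genes of this class mostly encode DNA-binding proteins with tandem C2H2 fingers, each held by a pair of cysteines and a pair of histidines around a zinc ion. Many begin with a KRAB domain, which recruits the corepressor TRIM28 and through it histone methylation, heterochromatin proteins and deacetylase complexes. KRAB zinc-finger proteins are known for silencing retrotransposons in early embryos and pluripotent cells. The KRAB A and B boxes are typically encoded by short separate exons, and the finger array by the last exon, so skipping can separate the repressor domain from the DNA-binding part.

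The symbols were set beside annotated coding sequences, since a symbol alone does not give a protein's domains. Of the 171 symbols, 163 had a complete coding sequence in GENCODE release 29. At least 2 C2H2 fingers were found in 148 of them, 1 in 6 and 0 in 9, with a median of 9 and at most 33. ZNF185, an actin-associated LIM-domain protein, was among those with 0, and the symbol rule also takes pseudogenes such as ZNF815P. Some others with 0 had short coding sequences under the listed identifier, such as ZNF19 with 94 codons and ZNF670 with 137. Longer ones also had 0, such as ZNF862 with 1169 codons and ZNF839 with 927. A count of 0 describes the sequence counted and not every product of the gene.

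A typical length marked many of the listed exons. Exons of 127 bases, the length of the KRAB A box exon, made up 47 of the 603 zinc-finger events in RS3 (7.79%) against 0.927% of all events. In RS2 they made up 42 of 565 (7.43%) against 0.919%. Exons of 96 bases were the next most frequent, with 3.65% of the zinc-finger events in RS3 against 1.07% of all events, and 3.19% against 1.08% in RS2. Zinc-finger genes on chromosome 19 had a larger share of 127-base events, 16.5% in RS3 and 15.8% in RS2.

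**Figure D1:**
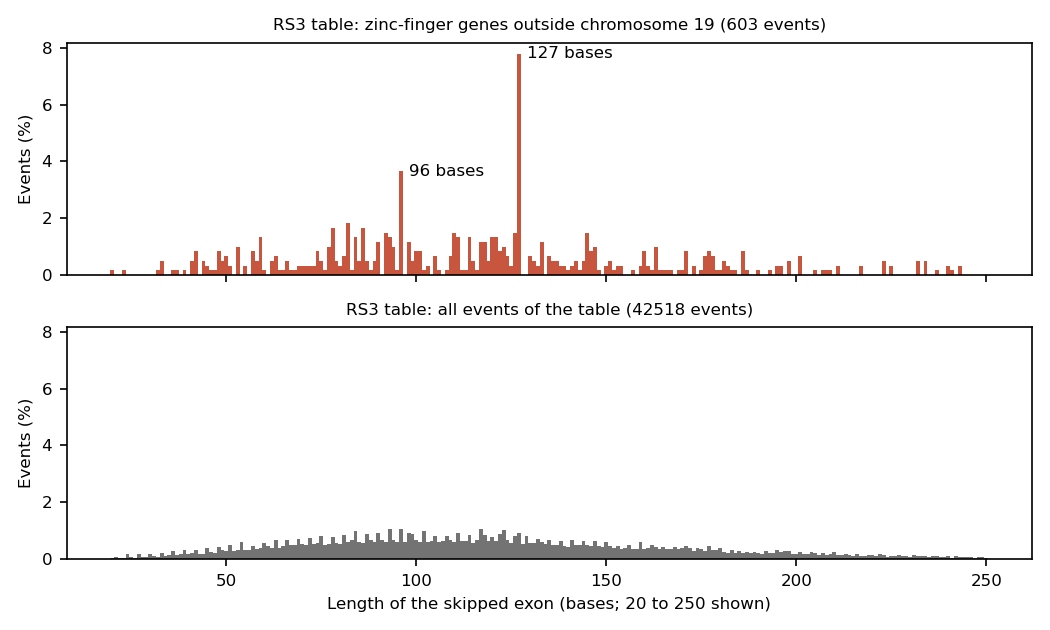
Length of the skipped exon in the RS3 table, in bases, against the percentage of events, for zinc-finger genes outside chromosome 19 (top, 603 events) and for all events (bottom, 42518). Peaks at 127 and 96 bases stand out in the top panel, at 7.79% and 3.65%.

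Most of the 127-base exons were related in sequence as well as in length. Of 35 listed exons of this length in 34 genes, 29 could be matched to a coding exon of the same gene in GENCODE. At 33 of the 127 positions the same base was found in at least 90% of the 29 exons. The ZNF138 exon, the only 127-base one called in these genes, shared between 33.9% (ZNF232) and 91.3% (ZNF680) of its bases with the others, with a median of 65.4%. A set of 6 is shown on the transcribed strand, with capitals at those shared positions. The ZNF138 exon lies at chr7:64275296-64275422 on the plus strand in hg19, the build of all coordinates here, and ZNF680 and ZNF92 on the same chromosome are its nearest matches. ZNF720, ZNF778 and ZNF140 span the range of values described further on.
ZNF138: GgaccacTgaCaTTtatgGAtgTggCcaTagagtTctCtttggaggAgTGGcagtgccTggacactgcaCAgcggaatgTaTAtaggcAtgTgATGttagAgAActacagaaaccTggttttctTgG
ZNF680: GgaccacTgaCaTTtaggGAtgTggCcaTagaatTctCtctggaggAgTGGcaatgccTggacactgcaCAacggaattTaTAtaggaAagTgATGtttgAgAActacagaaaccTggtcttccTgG
ZNF92: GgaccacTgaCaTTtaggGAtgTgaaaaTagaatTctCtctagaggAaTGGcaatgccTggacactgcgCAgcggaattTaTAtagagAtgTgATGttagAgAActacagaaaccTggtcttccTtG
ZNF720: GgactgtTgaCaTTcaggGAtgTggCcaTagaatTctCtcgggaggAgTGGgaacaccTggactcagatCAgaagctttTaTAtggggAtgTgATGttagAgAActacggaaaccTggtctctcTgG
ZNF778: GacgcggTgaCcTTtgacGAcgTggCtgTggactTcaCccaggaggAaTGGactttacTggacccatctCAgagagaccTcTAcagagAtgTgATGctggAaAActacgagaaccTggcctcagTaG
ZNF140: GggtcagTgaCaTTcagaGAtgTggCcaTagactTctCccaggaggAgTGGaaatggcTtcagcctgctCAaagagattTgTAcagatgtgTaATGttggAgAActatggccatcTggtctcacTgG

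Reading frames were followed, for each gene, in the longest complete annotated coding sequence among transcripts in which the whole exon is coding. A length of 127 bases is not a multiple of 3. Removing the exon brought an early stop codon in 29 of 29 genes, after a median of 28 codons (lowest 2, highest 221) against a median of 492 codons with the exon. For ZNF138 this was 2 codons without the exon against 319 with it. These are properties of the annotation and not measurements in these libraries.

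In RS3, 8 zinc-finger events in 7 exons of 6 genes were called, that is, their listed FDR was under 0.05 and the inclusion level differed by 0.1 or more in either direction. They were 1.33% of the 603 events, against 0.967% of all events in the RS3 table, so the share was close to the background. By gene, 6 of 167 (3.59%) had a called event against 3.06% of all genes. Inclusion was lower in 6 events (ZNF138, ZNF133 with 2, ZNF684, ZNF592 and ZNF384), where 0.736% of all events were called lower. It was higher in 2 (ZNF384 and ZNF195), where 0.23% of all events were called higher. The 6 genes lay on 6 chromosomes. The deposited p-values compare 2 libraries and not 2 conditions, as every group is a single library.

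**Figure D2:**
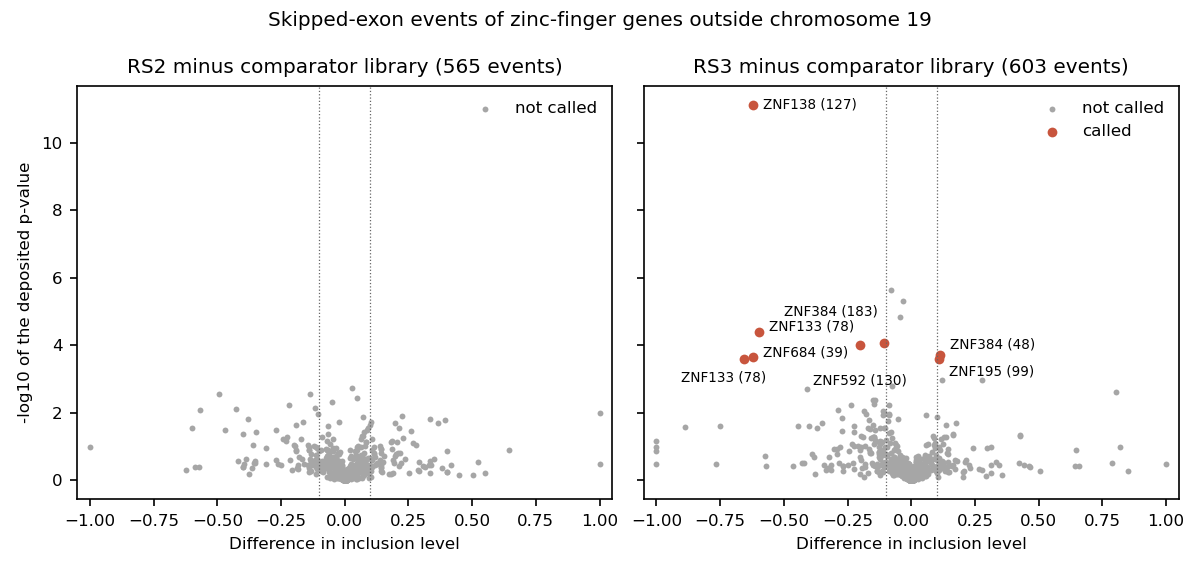
Difference in inclusion level against -log10 of the deposited p-value for each zinc-finger event in RS2 (left) and RS3 (right), with exon lengths in bases beside the called genes and dotted lines at -0.1 and 0.1. The 8 called events are all in RS3, and the ZNF138 exon has the smallest p-value.

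ZNF138 (ENSG00000197008) encodes a KRAB zinc-finger protein of a cluster on chromosome 7. Its 127-base exon, the KRAB A box exon printed above, was included less in RS3 by a wide margin, with -0.622 and an FDR of 4.3e-09 per the authors' deposited table. A further row of the exon had -0.224 (FDR 0.477) per the authors' deposited table. The only RS2 row was 0.004 (FDR 1.0) per the authors' deposited table. Both RS3 rows lay below 0 and the RS2 row close to it. The other 4 listed exons of ZNF138 had 0 called events. Among them, the 137-base exon stood at 1.0 (FDR 0.767) and 0.096 in RS2 and at -0.128 in RS3 per the authors' deposited table. The close relatives of ZNF138 share long stretches of sequence, and no source used here says how reads fitting several genes were treated. Its part in this result was not tested.

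ZNF684 (ENSG00000117010), another KRAB zinc-finger gene, had 1 listed exon. This 39-base exon at 40998815 to 40998853 on chromosome 1 fell by 0.623 in RS3, with an FDR of 0.0181, per the authors' deposited table. In RS2 the authors' deposited table gave -0.115 (FDR 1.0). Both lay below 0, but they share the comparator library and are not independent. In 4 of the 5 GENCODE transcripts that contain an exon of this length, it holds the start codon. This match rests on length alone, because the gene has no other listed exon.

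ZNF133 (ENSG00000125846) encodes a KRAB zinc-finger repressor. A 78-base exon at 18278629 to 18278706 on chromosome 20 was called in 2 rows in RS3, with -0.598 (FDR 0.00478) and -0.657 (FDR 0.0201) per the authors' deposited table. Its last RS3 row was 0.292 (FDR 1.0) per the authors' deposited table. The RS2 rows of the exon were -0.493 (FDR 0.418), -0.429 (FDR 0.674) and 0.292 (FDR 1.0) per the authors' deposited table. None of them was called in RS2. A second exon of the gene, of 171 bases, stood at -0.41 (FDR 0.0967), -0.135 and 0.0 in RS3 and at -0.379 (FDR 0.843), -0.471 and 0.329 in RS2 per the authors' deposited table. Both exons precede the coding sequence in most annotated transcripts: 4 of 5 for the 78-base exon, which holds the start codon in the remaining 1, and 3 of 3 for the 171-base exon. Exons further along the gene, its 127-base exon among them, lay between -0.022 and 0.056 in RS3 per the authors' deposited table.

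**Figure D3:**
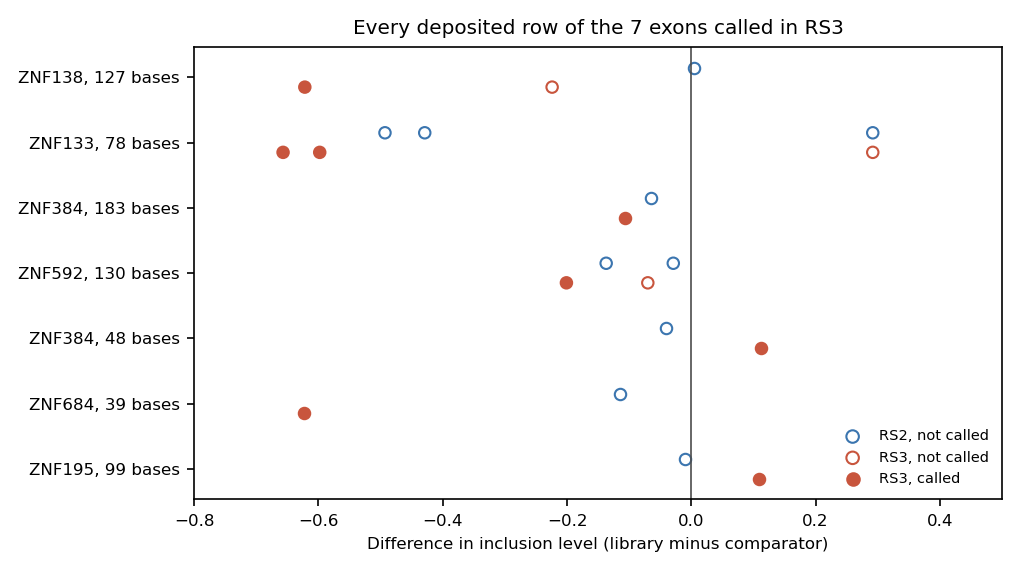
Every deposited row of the 7 exons called in RS3, as the difference in inclusion level from the comparator library. Filled circles are called rows, and open circles rows that were not called, with RS2 above RS3 for each exon. The ZNF138 exon has a row at -0.622 in RS3 and 1 row at 0.004 in RS2, and the ZNF684 exon 1 row at -0.623 in RS3 and 1 at -0.115 in RS2.

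ZNF195 (ENSG00000005801), a KRAB zinc-finger gene on chromosome 11, had 20 events in RS3 and 18 in RS2. A 99-base exon at 3394807 to 3394905 rose by 0.109 in RS3 (FDR 0.0202), against -0.01 (FDR 1.0) in RS2, per the authors' deposited table. A shorter form of it, of 80 bases with the same lower coordinate, was also higher in RS3 without passing, at 0.279 (FDR 0.0607) and 0.122 (FDR 0.0608) per the authors' deposited table. Its RS2 rows were 0.183 and -0.048, both with an FDR of 1.0, per the authors' deposited table. The longer form holds the start codon in 2 of 2 annotated transcripts and the shorter form in 9 of 12. Further along the gene, a 146-base exon at 3390587 to 3390732 had 0.804 in RS3 (FDR 0.11) and 0.402 in RS2 (FDR 1.0) per the authors' deposited table. The next exon, of 70 or 57 bases, was lower in RS3 without passing. The 70-base form had -0.151 (FDR 0.161) in RS3 and -0.113 (FDR 1.0) in RS2 per the authors' deposited table.

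**Figure D4:**
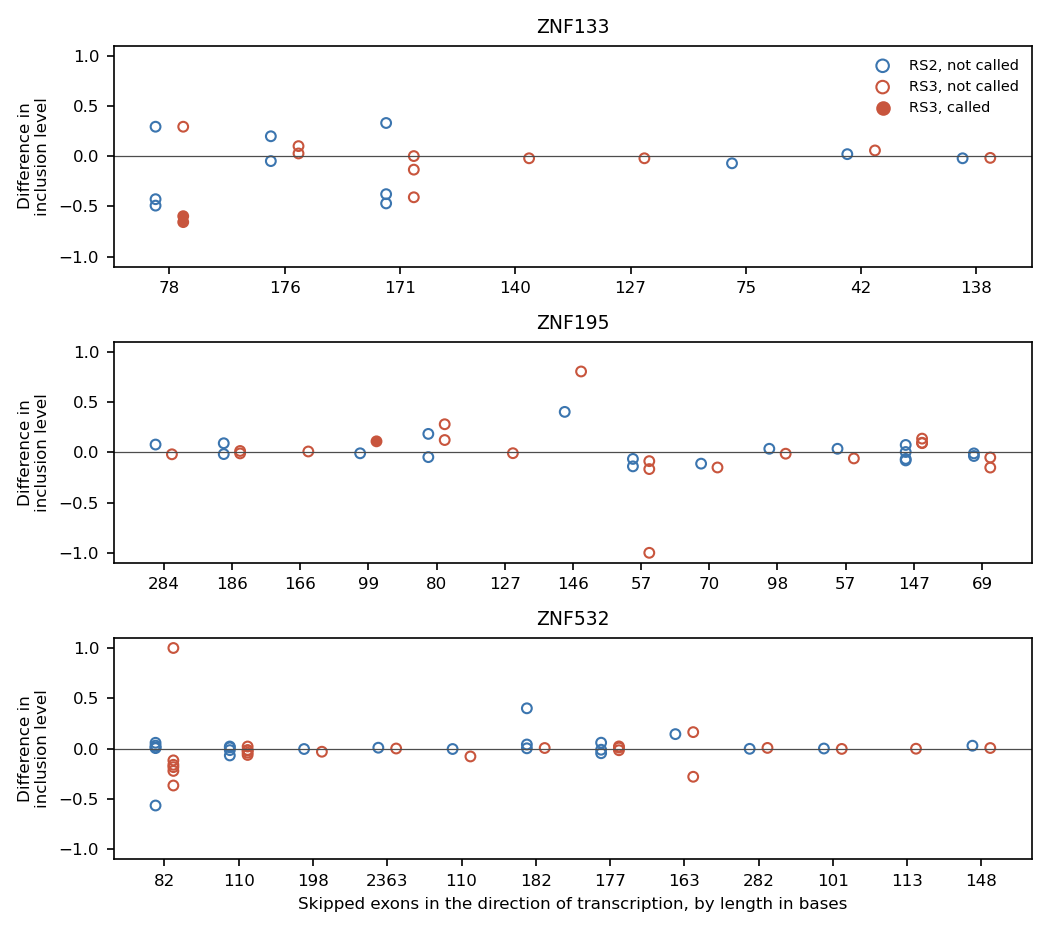
Difference in inclusion level for each listed exon of ZNF133, ZNF195 and ZNF532 in the direction of transcription, labelled by exon length in bases. Circles are deposited rows, RS2 left of RS3, filled where called. Rows of 1 exon can lie on both sides of 0, as at the first exon of ZNF133 (-0.657 to 0.292 in RS3).

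ZNF384 (ENSG00000126746) encodes a C2H2 factor without a KRAB domain that is known as a fusion partner in acute leukaemia. It had 2 called exons on chromosome 12, and they went in opposite directions. The 183-base exon at 6781516 to 6781698 fell by 0.107 in RS3 (FDR 0.00857) and stood at -0.065 in RS2 (FDR 0.964), per the authors' deposited table. The 48-base exon at 6787829 to 6787876 rose by 0.112 in RS3 (FDR 0.0165) and stood at -0.041 in RS2 (FDR 1.0), per the authors' deposited table. Both differences are just past the minimum of 0.1. The other 3 listed exons lay between -0.012 and 0.008 in RS3 per the authors' deposited table. Both called lengths are multiples of 3, and the annotated sequence of 577 codons keeps its frame with 516 codons without the 183-base exon and 561 without the 48-base exon. They are shown because the exons differ in content: capitals mark the cysteine and histidine codons of the gene's 8 C2H2 fingers. The 183-base exon holds 1 whole finger and parts of its neighbours, and the 48-base exon holds none.
ZNF384 183-base exon: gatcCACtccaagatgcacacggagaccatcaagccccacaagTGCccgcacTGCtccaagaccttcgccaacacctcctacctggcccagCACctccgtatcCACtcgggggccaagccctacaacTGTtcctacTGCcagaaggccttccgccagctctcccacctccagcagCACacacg
ZNF384 48-base exon: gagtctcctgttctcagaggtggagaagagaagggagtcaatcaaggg

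ZNF592 (ENSG00000166716) encodes a finger protein known from a complex with ZNF687 and the chromatin reader ZMYND8. A 130-base exon at 85321414 to 85321543 on chromosome 15 fell by 0.201 in RS3 (FDR 0.00956) per the authors' deposited table. Its second RS3 row was -0.07 (FDR 1.0) per the authors' deposited table. In RS2 the rows were -0.137 (FDR 0.418) and -0.029 (FDR 1.0) per the authors' deposited table. All 4 rows were below 0, but RS2 and RS3 share the comparator library, so the rows are not independent. The matching GENCODE exon precedes the coding sequence in the 1 transcript that has it.

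The called exons thus differed in their place in the gene. Of 7 exons, both of ZNF384 were wholly coding in every annotated transcript that holds them. The ZNF138 exon was wholly coding in 5 of 6 transcripts and held the start codon in the remaining 1. The exons of ZNF684 and ZNF195 carried the annotated start codon, and those of ZNF133 and ZNF592 lay mostly or wholly before it. Of the 492 zinc-finger exons matched to a single GENCODE exon, 246 were fully coding in at least 1 transcript, 109 at most partly coding, 95 only untranslated and 42 in transcripts without coding sequence. The length was a multiple of 3 in 5 of the 7 called exons, or 6 of the 8 called events. In RS3 the share was 39.0% over zinc-finger events and 41.2% over all events, called or not. Of the 5 exons, only the 2 of ZNF384 were wholly coding. For the others the length alone does not say whether a reading frame is kept.

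An FDR under 0.05 at any size of difference was listed in RS3 for 11 zinc-finger events (1.82%), against 1.64% of all events. Of these, 3 differed by less than 0.1 and so were not called. ZNF532, known as a fusion partner in NUT carcinoma, had a 110-base exon at -0.079 (FDR 0.000411) and a 198-base exon at -0.032 (FDR 0.000781) per the authors' deposited table. ZNF706, whose mouse counterpart is known to limit embryonic stem cell self-renewal, had a 115-base exon at -0.043 (FDR 0.00205) per the authors' deposited table. A second RS3 row of the ZNF706 exon was -0.055 per the authors' deposited table. The RS2 rows of these ZNF532 exons were both -0.005, and those of the ZNF706 exon -0.021 and 0.087, per the authors' deposited table. The next smallest FDR outside the genes already named was that of the 127-base exon of ZNF720, at -0.074 (FDR 0.0825) in RS3 per the authors' deposited table. Its second RS3 row was -0.021, and its RS2 rows were -0.042 and -0.013, per the authors' deposited table.

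The 127-base exons leaned towards lower inclusion in RS3. The median over these 47 events was -0.06, with 32 lower and 15 higher. The median was -0.004 over zinc-finger events of other lengths and -0.001 over all events. Differences of at least 0.1 numbered 16 on the lower side and 1 on the higher, ZNF140 at 0.205 (FDR 1.0) per the authors' deposited table. Of the lower ones, ZNF778 had -0.289 (FDR 0.256), ZNF92 had -0.272 (FDR 0.347) and ZNF680 had -0.189 (FDR 0.673) per the authors' deposited table, and none of these 3 was called. ZNF778 and ZNF92 each had a second row above 0, at 0.02 and 0.05 per the authors' deposited table. With 1 row per exon, the one with the smallest p-value, the median over 34 exons was -0.0735. Differences of at least 0.1 then numbered 13 lower and 1 higher. In RS3 such differences numbered 21 lower and 12 higher for 127-base events of zinc-finger genes on chromosome 19. They numbered 114 and 80 for zinc-finger events of other lengths outside chromosome 19, and 5231 and 3765 over all events. In RS2 the 127-base events had a median of -0.0045, with 23 lower and 19 higher. Events of 127 bases in zinc-finger genes on chromosome 19 had a median of -0.03 in RS3 and 0.0125 in RS2. Those in genes without a zinc-finger symbol had 0.001 in RS3 and 0.002 in RS2. These lengths were singled out after the values were seen, so no test was made.

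**Figure D5:**
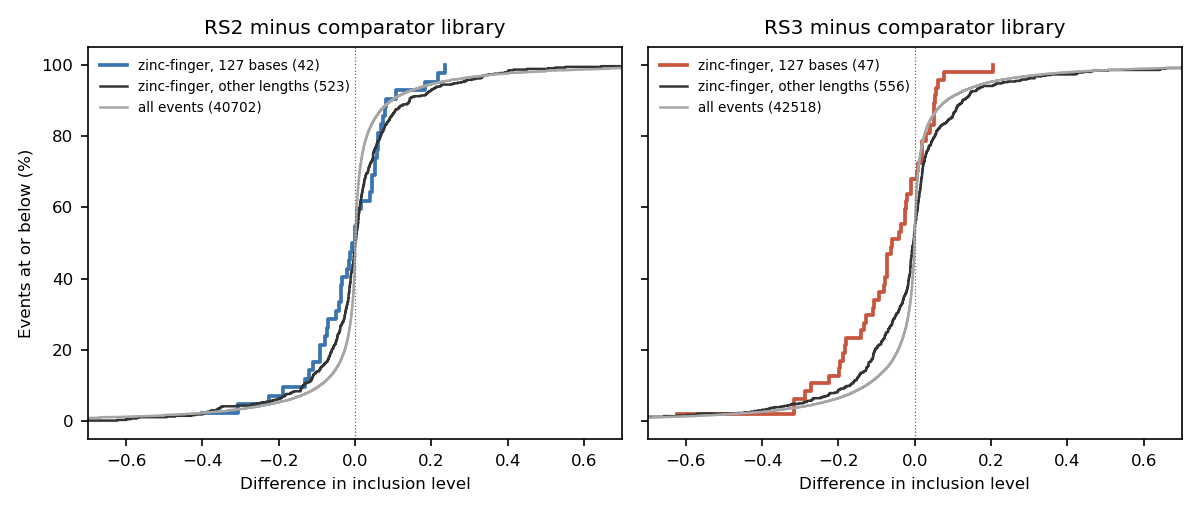
Cumulative percentage of events at or below each difference in inclusion level, for 127-base zinc-finger exons, zinc-finger exons of other lengths and all events, in RS2 (left) and RS3 (right). In RS3 the median is -0.06 for the 127-base exons, -0.004 for zinc-finger exons of other lengths and -0.001 for all events.

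In RS2, 0 of 565 zinc-finger events were called, against 0.0712% of all events in the RS2 table. The backgrounds were 0.0442% for lower, 0.027% for higher and 0.165% for an FDR under 0.05 alone, each with 0 zinc-finger events. Adjusting the p-values again by Benjamini-Hochberg also gave 0. An unadjusted p-value under 0.05 was listed for 37 events (6.55%, 19 lower and 18 higher), against 4.52% of all events. In RS3 this held for 59 events (9.78%, 47 lower and 12 higher), against 7.61% of all events. Of these 59, 79.7% were lower, against 68.3% in all events. The smallest FDR values in RS2 were those of a 148-base exon of ZNF532 (0.028, FDR 0.332), and of the ZNF592 and ZNF133 exons above, per the authors' deposited table. A 118-base exon of ZNF212 (0.048, FDR 0.495) and a 150-base exon of ZNF740 (-0.051, FDR 0.557) followed per the authors' deposited table. The same exons stood at 0.005, 0.003 and -0.011 in RS3 per the authors' deposited table.

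Over all zinc-finger events the median difference was -0.007 in RS3 (quartiles -0.079 and 0.0285) and 0.0 in RS2 (quartiles -0.043 and 0.048). Over all events of the tables it was -0.001 in RS3 and 0.0 in RS2. In RS3, 327 zinc-finger events were lower and 265 higher, and in RS2 280 were lower and 280 higher. The spread was wider than in the whole table: 35.0% of the zinc-finger events in RS3 differed by at least 0.1, against 21.2% of all events, and 27.6% in RS2 against 19.2%. On chromosome 19 these shares were 45.2% in RS3 and 41.5% in RS2. Nearly all of these differences were uncalled. The depth behind a value is unknown from these columns, and its part in this spread was not tested.

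Very large differences were mostly uncalled as well. Of 22 zinc-finger events in RS3 with a difference of at least 0.5, 18 were not called, against 1451 of 1466 over all events. In RS2, 12 of 12 were not called, against 1470 of 1470 over all events. A full switch of -1.0 was listed in RS3 for exons of ZNF638 (FDR 0.848), ZNF214 (FDR 0.917), ZNF286A (FDR 1.0) and ZNF195 (FDR 0.749), and 1.0 for ZNF532 (FDR 1.0), per the authors' deposited table. ZNF638 had another row of the same exon at -0.008, and the 82-base ZNF532 exon had 5 other rows between -0.368 and -0.118, per the authors' deposited table. The RS2 value of the ZNF214 exon was -0.394 per the authors' deposited table. In RS2 the full switches were those of ZNF138 given above, ZNF250 (1.0, FDR 1.0) and ZNF131 (-1.0, FDR 1.0) per the authors' deposited table. They were followed by ZNF334 (0.645) and ZNF519 (-0.623), each with an FDR of 1.0, per the authors' deposited table. In RS3 the ZNF250 exon stood at 0.788, the ZNF334 exon at 0.645 and the ZNF519 exon at -0.768, with FDR values of 1.0, 0.895 and 1.0, per the authors' deposited table.

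Of the 6 called genes, 4 were on a list of KRAB zinc-finger genes. Of a list of 91 KRAB zinc-finger genes, which is not complete, 69 were in the RS3 table and 4 had a called event (5.8%, against 3.06% of all genes): ZNF138, ZNF133 and ZNF684 with lower and ZNF195 with higher inclusion. The median over the 274 events of the list was -0.0035. A list of zinc-finger genes known to lack a KRAB domain, also not complete, had 34 genes in the RS3 table, of which ZNF592 was called, with a median of -0.008 over 153 events. Of 11 genes with a SCAN domain, an oligomerisation module, 0 were called, with a median of -0.017 over 38 events and 2 of these at an unadjusted p-value under 0.05. The called share of genes on the list without KRAB was 2.94%. ZNF384, which also lacks a KRAB domain and had 2 called events, was among the 61 genes on none of these lists. It was the only called gene there (1.64%). The lists do not sort every gene by the domain, so these shares do not compare genes with and without it. All 3 lists had 0 called genes in RS2, where 0.238% of all genes were called. An unadjusted p-value under 0.05 was listed in RS2 for 20 of 251 events of the KRAB list (7.97%). The list without KRAB had 9 of 140 (6.43%) and the SCAN list 1 of 31 (3.23%), against 4.52% of all events. In RS3 the KRAB list had 31 of 274 (11.3%, 26 lower and 5 higher). The list without KRAB had 12 of 153 there (7.84%) and the SCAN list 2 of 38 (5.26%), against 7.61% of all events. The lists overlap and were chosen with earlier results of these data known, and the difference between them was not tested.

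Of the corepressor genes through which KRAB proteins act, 29 of a list of 30 were in the RS3 table and 4 had a called event (13.8%), against 3.06% of all genes. The list was chosen with earlier results of these data known, so this share is a description and was not tested. The median difference over the list's 129 events was 0.001. MTA1, a subunit of the NuRD deacetylase complex, fell by 0.268 (FDR 1.04e-07) at a 51-base exon and fell by 0.213 (FDR 0.025) in a second row in RS3 per the authors' deposited table. Its RS2 rows were -0.127 (FDR 0.166) and -0.072 per the authors' deposited table. PPHLN1, periphilin of the HUSH silencing complex, fell by 0.19 at a 165-base exon in RS3 (FDR listed as 0), against -0.035 in RS2, per the authors' deposited table. CHD3, the NuRD remodeller, rose by 0.144 (FDR 9.6e-07) at a 102-base exon in RS3, with a second row at -0.004, per the authors' deposited table. Its RS2 rows stood at 0.075 (FDR 0.349) and -0.015 (FDR 1.0), per the authors' deposited table. DNMT1, the maintenance DNA methyltransferase, rose at a 48-base exon by 0.145 (FDR 3.77e-05) in RS3, against 0.025 in RS2, per the authors' deposited table. The remaining 25 genes, TRIM28 and SETDB1 among them, had 0 called events. In RS2 0 of 29 genes of the list were called, against 0.238% of all genes. An unadjusted p-value under 0.05 was listed there for 4 of 131 events (3.05%), against 4.52% of all events.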

How the data were processed

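TruSeq mRNA libraries were made from Trizol-extracted, DNase-treated and column-purified RNA, per the labels' protocols. Reads were handled with FastQC and STAR on hg19, per the submitters' processing notes. Versions and the splicing caller: not given in the sources used here. For each row the authors deposited the inclusion level difference, a score between -1 and 1, with its p-value and FDR. No value was taken from another 4 columns of per-library inclusion levels. They were looked at once to read the direction of the difference, which equalled the first level minus the second, the second being mostly shared by both tables. Read depth is unknown, so no interval could be given. With 1 library per group, p-values cover 2 libraries only.

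A call needed a deposited FDR under 0.05 and an absolute difference of at least 0.1. Coordinates are hg19, counted from 1. Exons were matched to GENCODE 29 by gene identifier, length and spacing, with no conversion of coordinates, and their sequences come from its transcripts. C2H2 fingers were counted as cysteines 2 to 4 residues apart, 12 residues and histidines 3 to 5 residues apart. Named genes were every called event with its rows in both tables, the 5 uncalled events per table with the smallest FDR and the 5 with the largest difference, 1 per gene, and called genes of the lists. The 127-base examples were chosen after their values were seen. Members and lists were chosen with earlier results of these data known. The Benjamini-Hochberg adjustment and the call rule were tested on simulated p-values. Python 3.11.15, pandas 2.3.3, numpy 2.4.6 and matplotlib 3.10.9 were used. Other call limits, row choices and a finger-based membership were tried as alternatives.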

Additional observations from a re-analysis of the deposited data

Results flagged for a closer look

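For exons of 3 genes the called RS3 value and the RS2 value had opposite signs. The RS2 values of ZNF138 and ZNF195 were close to 0, and none of the 3 RS2 values had an unadjusted p-value under 0.05. The difference between RS3 and RS2 itself was not tested. The 127-base exon of ZNF138 stood at -0.622 in RS3 and 0.004 in RS2 per the authors' deposited table. For the 48-base exon of ZNF384 the authors' deposited table gave 0.112 in RS3 and -0.041 in RS2. For the 99-base exon of ZNF195 it was 0.109 in RS3 and -0.01 in RS2 per the authors' deposited table. In each case only the RS3 row was called.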

How the results depend on the processing

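With a minimum difference of 0.2, 5 zinc-finger events were called in RS3 (0.829%, against 0.445% of all events), and 100% of them were lower. With an FDR under 0.01, 4 were called (0.663%, against 0.614%), and 100% were lower. With an FDR under 0.1, 11 were called (1.82%, against 1.2%), and 63.6% were lower. Over exons in a single row, 4 events in 3 genes (ZNF195, ZNF384 and ZNF684) were called (1.04%, against 0.779% of all events) and 50.0% were lower, since that choice leaves out ZNF133, ZNF138 and ZNF592. The other counts and shares stayed within 1.5 times the reported value or, for the share lower, within 10 percentage points. The median difference was -0.003 in RS3 over exons in a single row and -0.001 in RS2 with 1 row per exon, against the reported -0.007 and 0.0. Membership by at least 2 C2H2 fingers, chosen after seeing the data, gave 8 called events (1.49%, against 0.968%). The planned membership by RefSeq protein was not run. Leaving out a replicate was not possible. No paired analysis was possible because each group has 1 library. Unknown depth limits every value.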

Other observations

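The 59-base exon of ZNF334, a KRAB zinc-finger gene on chromosome 20, had rows of 0.645 and -0.377 in RS3 and the same 0.645 and -0.377 in RS2 per the authors' deposited table. None was called. The 96-base exon of ZNF680, next to its 127-base exon, stood at -0.352 (FDR 0.423) in RS3 and -0.094 (FDR 1.0) in RS2 per the authors' deposited table. The ZNF334 exon and the 96-base ZNF680 exon were chosen after their values were seen.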
